A study of Mus musculus with 18 samples.

Results

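The genes described are 9 members of the machinery that holds sister chromatids together in the oocyte and lets them go: the meiosis-specific cohesin subunits *Rec8*, *Smc1b* and *Stag3*, the shared subunits *Smc3* and *Rad21*, the shugoshins *Sgo1* and *Sgo2a*, separase (*Espl1*) and securin (*Pttg1*). They were taken by gene symbol and matched to read counts by Ensembl identifier, and all 9 were found among the 53715 genes counted. Each was followed over 18 mouse libraries in 6 groups of 3, from (C57Bl/6j x CBA/J) F1 females with no deletion or transgene in any group. Oocytes of primordial follicles and oocytes of primary follicles were cut from sections of fixed, paraffin-embedded ovaries by laser-capture microdissection (LCM). Their *in vivo* groups came from non-cultured ovaries of 14-day-old mice and their *in vitro* groups from ovaries of 7-day-old mice cultured for 7 days. MII oocytes, arrested at metaphase of the second meiotic division, were collected from superovulated adult mice (*in vivo*) or from follicles of cultured ovaries grown in alginate for another 12 days and ovulated in the dish with hCG (*in vitro*), with 10 oocytes pooled per library. The comparisons ask how growth in culture and the step from primordial to primary follicle go with the RNA level of each gene. The sources do not say whether the 3 libraries of a group came from separate animals or cultures, so p-values measure the spread between these libraries, which may be technical.

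Cohesin is a ring of 2 SMC proteins closed by a kleisin, with a STAG protein bound to the kleisin. Meiotic cells build rings in which SMC1B replaces SMC1A, REC8 replaces RAD21 and STAG3 replaces STAG1 or STAG2, and in the mouse oocyte the rings laid down before birth are thought to hold the chromosomes through the long arrest. At each meiotic division separase cuts the kleisin. Shugoshins protect cohesin at the centromere by recruiting the phosphatase PP2A, and securin holds separase inactive until the anaphase-promoting complex destroys it.

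The 2 kinds of oocyte were not prepared alike. LCM RNA was amplified and enriched for coding sequence by probe capture (TruSeq RNA Access), and MII RNA was prepared by Smart-seq II. The effects of stage and of preparation cannot be told apart here, so LCM and MII levels are set side by side with no test. Whether the capture probes cover a given gene could not be checked. Low or zero LCM counts therefore do not show that its RNA was absent. Each LCM library held 15149564 to 29205503 reads on genes and each MII library 7334817 to 9978830, and a gene counted as detected in a library above a floor of 3 reads. As CPM (reads scaled to a common library total), that floor was at 0.103 to 0.198 for LCM and at 0.301 to 0.409 for MII oocytes, and it covers counting error only. Replicate libraries correlated at a Spearman coefficient of 0.295 to 0.716 across genes in the LCM groups and of 0.85 to 0.931 in the MII groups. Of 12 oocyte markers, 9 to 12 were detected in each LCM library and 10 to 11 in each MII library, with *Gdf9* and *Zp3* detected in all 18. The LCM libraries also held stromal RNA: 4 to 8 of 8 stromal markers were detected, at a summed level of 959 to 28900 CPM against 207 to 1350 CPM for the oocyte markers. Of 10 granulosa cell markers, 3 to 9 were detected in an LCM library, at a summed 79.7 to 3160 CPM. Endothelial markers reached 0 to 4 of 4 detected and leukocyte markers 0 to 1 of 4 in these libraries, with *Ptprc* at 0 reads in all 12. The part of these other cells in the LCM values below was not tested, and in such samples fewer cells of a type and less RNA per cell cannot be told apart. In the MII libraries the 8 stromal markers summed to 0.894 to 12.5 CPM. The 10 granulosa cell markers summed to 45.9 to 122 CPM, with 2 to 5 detected. *Foxl2* and *Amhr2* had 0 reads in all 6, whereas *Cyp19a1* had 334 to 1039 reads and *Kitl* 27 to 167 reads in each. Endothelial markers reached 3 of 4 detected in each MII library, at a summed 119 to 230 CPM. Leukocyte markers reached 1 of 4, at 1.24 to 5.51 CPM.

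The 4 members whose level separated MII from LCM oocytes were *Sgo1*, *Sgo2a*, *Espl1* and *Pttg1*. Their promoters are printed beside that of *Rec8*, a member with almost no reads. Each line gives the 250 bases before a RefSeq start (GRCm38.p6, read along the strand of the gene). Capitals mark 4 short motifs on either strand that are known from cell cycle and meiotic promoters: CCAAT, the box bound by NF-Y; TTTGAA, the core of the cell cycle gene homology region; CACGTG, a palindromic E-box; and TCCCGC, a core of E2F sites. The windows are chr15:102296043-102296292 on the plus strand for *Espl1*, chr17:53689316-53689565 on the minus strand for *Sgo1*, chr1:57995724-57995973 on the plus strand for *Sgo2a* (the second of its 2 listed starts), chr11:43425982-43426231 on the minus strand for *Pttg1* and chr14:55617916-55618165 on the plus strand for *Rec8*.
Espl1: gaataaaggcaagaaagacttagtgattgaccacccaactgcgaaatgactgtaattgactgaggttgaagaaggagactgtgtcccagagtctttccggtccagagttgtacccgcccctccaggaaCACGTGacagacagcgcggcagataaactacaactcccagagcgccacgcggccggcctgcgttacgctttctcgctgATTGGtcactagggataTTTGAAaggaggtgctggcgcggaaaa
Sgo1: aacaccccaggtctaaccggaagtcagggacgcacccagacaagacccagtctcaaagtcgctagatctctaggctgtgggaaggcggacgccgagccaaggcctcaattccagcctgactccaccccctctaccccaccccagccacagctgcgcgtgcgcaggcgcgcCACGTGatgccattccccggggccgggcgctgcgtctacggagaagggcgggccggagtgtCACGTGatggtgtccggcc
Sgo2a: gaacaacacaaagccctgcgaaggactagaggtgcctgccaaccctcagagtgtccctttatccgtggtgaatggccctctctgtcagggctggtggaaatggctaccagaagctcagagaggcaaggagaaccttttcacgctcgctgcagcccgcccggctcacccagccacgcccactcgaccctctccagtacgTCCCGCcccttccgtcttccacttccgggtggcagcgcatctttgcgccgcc
Pttg1: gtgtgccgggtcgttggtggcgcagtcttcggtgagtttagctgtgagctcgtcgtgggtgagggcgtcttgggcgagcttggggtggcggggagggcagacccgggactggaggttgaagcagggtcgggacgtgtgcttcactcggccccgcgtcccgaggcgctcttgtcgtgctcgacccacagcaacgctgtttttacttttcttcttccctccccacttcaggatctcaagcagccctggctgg
Rec8: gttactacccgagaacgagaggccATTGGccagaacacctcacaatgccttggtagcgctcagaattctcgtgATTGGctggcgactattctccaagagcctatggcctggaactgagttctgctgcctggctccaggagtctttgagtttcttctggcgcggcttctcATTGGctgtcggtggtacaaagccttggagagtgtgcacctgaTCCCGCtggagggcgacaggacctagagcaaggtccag
The *Espl1* window held 1 CCAAT, 1 TTTGAA and 1 CACGTG, and *Sgo1* held 2 CACGTG. The *Sgo2a* window printed held 1 TCCCGC, and that of its other listed start (chr1:57985090-57985339, plus strand) held 1 CCAAT and no TCCCGC. *Rec8* held 3 CCAAT and 1 TCCCGC, and the *Pttg1* window held none of the 4. Over all 32851 promoter windows of this length, 33.8% held CCAAT, 16% TTTGAA, 6.02% CACGTG and 16.9% TCCCGC. The 4 members with high MII levels therefore had no motif of this list in common. RefSeq promoters were matched for 8 of the 9 members, all but *Rad21*.

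Oocytes keep many mRNAs dormant until cytoplasmic polyadenylation, which needs a U-rich element a short way before the polyadenylation hexamer. The 3′ ends were therefore searched as well. Of the 9 members, 7 had AATAAA or ATTAAA in the last 50 bases of the GENCODE transcript, and of these *Sgo2a* alone had TTTTAT or TTTTAAT in the 100 bases before it. That element, in capitals in the stretch printed here, ended 33 bases before the hexamer.
Sgo2a 3′ site: tatgtatcaTTTTATcattaattc
Among 20979 genes, 15305 had such a hexamer, and 16.1% of these had the element.

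The levels of the 9 members in the 18 libraries fell into 3 sorts: few or no reads in most libraries (*Rec8*, *Stag3*), present at all stages (*Smc1b*, *Smc3*, *Rad21*) and high in MII oocytes (*Sgo1*, *Sgo2a*, *Espl1*, *Pttg1*). Levels between genes are given in TPM, the authors' value corrected for gene length and library size. Over gene and library pairs, members were detected in 76 of 108 in LCM oocytes and in 44 of 54 in MII oocytes. None of the members passed the test in any of the 6 comparisons between groups, which required a 2-fold change and a p under 0.05 after Benjamini-Hochberg adjustment in edgeR's quasi-likelihood test. That background was itself thin: the test called 0.0326% of 15317 genes between *in vitro* and *in vivo* at the primordial stage, 0% at the primary stage, 0.104% for the difference between these effects, 0.0522% between primary and primordial stage *in vivo*, 0% between them *in vitro*, and 0.35% of 17144 genes between *in vitro* and *in vivo* MII oocytes. At an unadjusted p under 0.05, 1799, 1479, 1765, 1713, 1673 and 1743 genes passed in the same order, and DESeq2 called 812, 244, 558, 561, 454 and 337 genes. Read against this background, 0 of 9 says little about the members themselves.

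**Figure D1:**
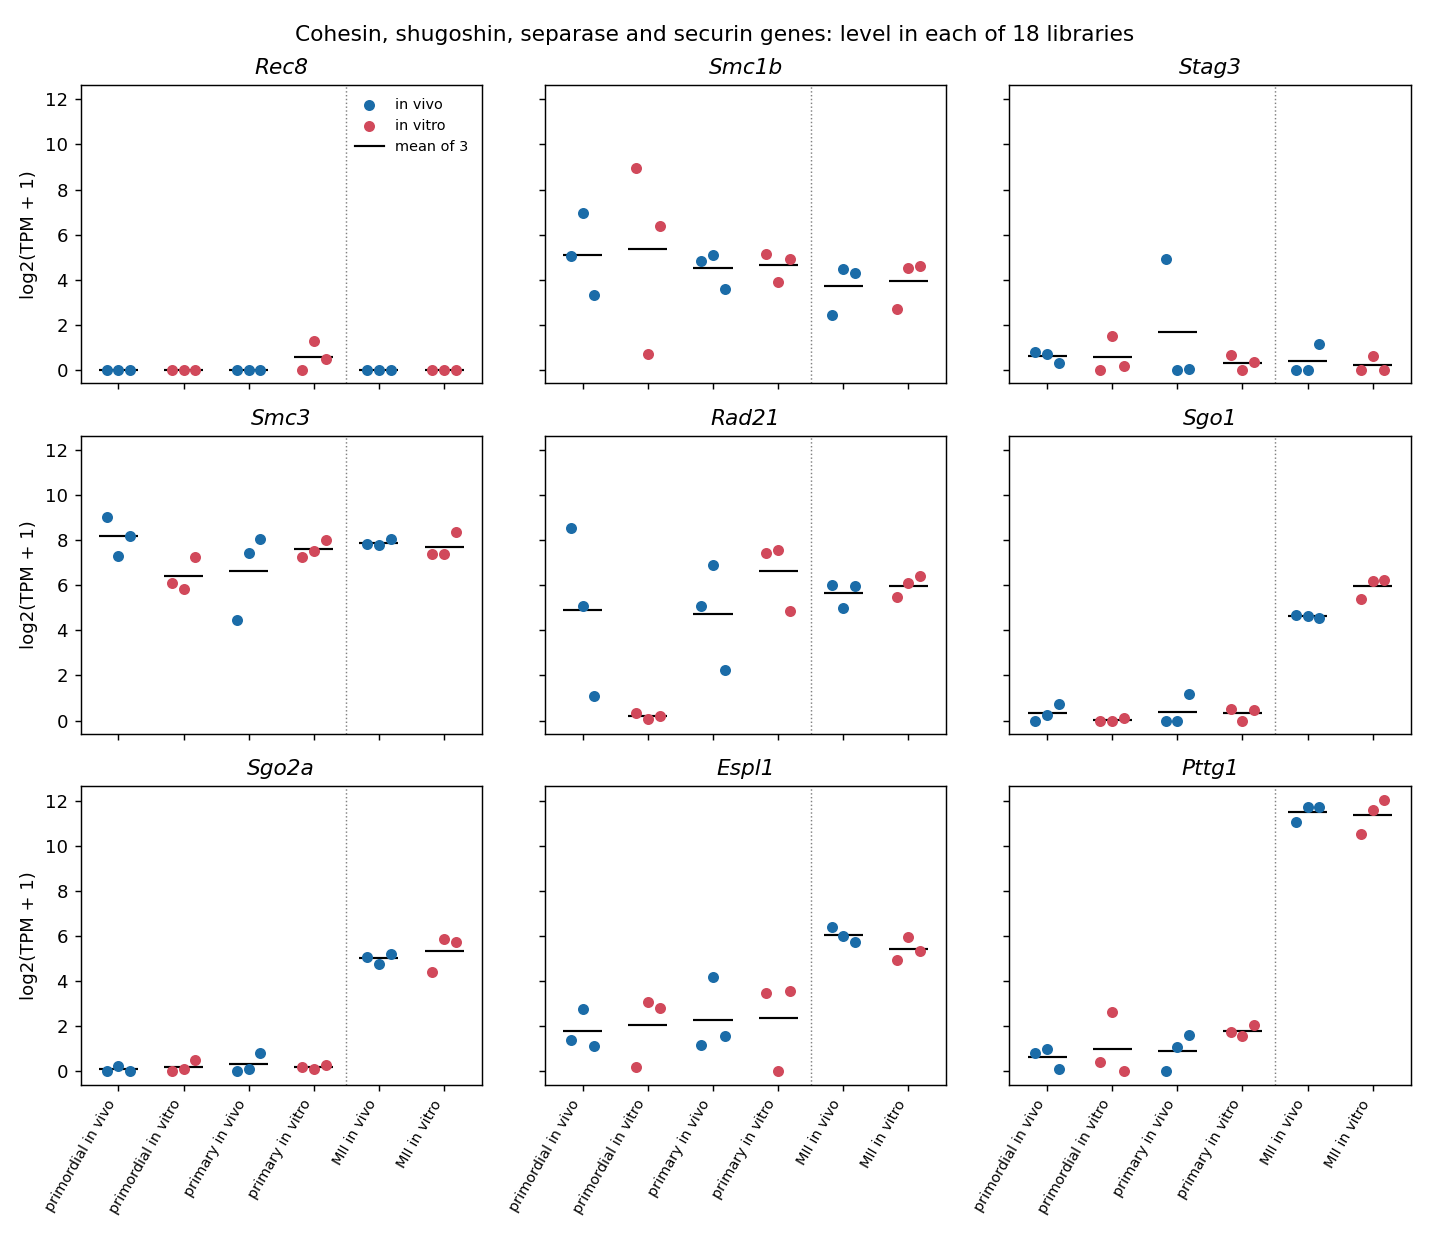
Level of each of the 9 members, as log2(TPM + 1), in every library of the 6 groups (blue, *in vivo*; red, *in vitro*; black line, mean of the 3 values); the dotted line separates the 12 LCM libraries from the 6 MII libraries, which were prepared with another kit. *Pttg1* ran from 1472 to 4208 TPM in MII oocytes and from 0 to 5.11 TPM in LCM oocytes, and *Rad21* reached at most 0.25 TPM in the 3 primordial *in vitro* libraries.

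The meiosis-specific subunits were led by *Smc1b*. *Rec8* (ENSMUSG00000002324; chr14:55618037-55625395, plus strand), the meiotic kleisin, had 0 reads in all 6 MII libraries, in all 6 primordial libraries and in the 3 primary *in vivo* libraries. Its 40 reads lay in the primary *in vitro* group, with 0, 31 and 9 reads in replicates 1, 2 and 3. *Rec8* RNA was thus not detected above the floor in 16 of 18 libraries. Whether the capture probes and the annotation used for counting cover *Rec8* could not be checked here, so these zeros do not show that its RNA was absent. The change at the primary stage did not pass the test (edgeR adjusted p = 0.519).

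*Stag3* (ENSMUSG00000036928; chr5:138280240-138312393, plus strand), the meiotic STAG subunit, was low in all groups but for 1 library. Primary *in vivo* oocytes had 29.4, 0 and 0.0341 TPM, from 1171, 0 and 1 reads. Primary *in vitro* oocytes had 0.555, 0 and 0.26 TPM, so the groups overlapped. The log2 fold change, *in vitro* over *in vivo*, was -5.95 (SE 3.92; edgeR adjusted p = 0.623), and without primary *in vivo* replicate 1 it turned to 3.55. That library also had the fewest genes above the floor of all 18 (4842), and its stromal markers summed to 1440 CPM. In MII oocytes *Stag3* was read in 1 library of each group, at 1.19 TPM *in vivo* and 0.545 TPM *in vitro*.

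*Smc1b* (ENSMUSG00000022432; chr15:85064689-85131964, minus strand), the meiotic partner of SMC3, was detected in all 18 libraries. Primordial oocytes *in vivo* had 31.7, 124 and 8.88 TPM and *in vitro* 495, 0.638 and 83.5 TPM. The *in vitro* libraries thus lay on both sides of the *in vivo* ones, and the log2 fold change of 2.10 (SE 2.56; edgeR adjusted p = 0.826) fell to -0.20 without primordial *in vitro* replicate 1. That library had 5703 genes above the floor and 4 members detected. Primary oocytes were more even, with 27.6, 33.6 and 11.1 TPM *in vivo* and 34.8, 14.1 and 29.5 TPM *in vitro*. In MII oocytes *Smc1b* had 4.38, 21.2 and 18.7 TPM *in vivo* and 5.44, 21.8 and 23.0 TPM *in vitro*, and 1 library of each group was low. A processed pseudogene, *Gm10923*, overlaps *Smc1b* on the other strand, and the sources do not say whether counting used strand.

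*Smc3* was the most abundant cohesin member by its median in both kinds of library. *Smc3* (ENSMUSG00000024974; chr19:53600398-53645833, plus strand), present in every ring, was read at 20.9 to 524 TPM in LCM oocytes (median 163.6) and at 165 to 325 TPM in MII oocytes (median 225). In primordial oocytes it had 524, 155 and 293 TPM *in vivo* and 67.0, 55.6 and 154 TPM *in vitro*. The highest *in vitro* library lay just under the lowest *in vivo* library in TPM, while the groups overlapped in normalized CPM. The log2 fold change was -1.80 (SE 1.85; edgeR adjusted p = 0.763). Primary oocytes had 20.9, 172 and 269 TPM *in vivo* and 152, 180 and 258 TPM *in vitro*.

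*Rad21* (ENSMUSG00000022314; chr15:51962240-51991747, minus strand), the kleisin of mitotic cells, was nearly absent from primordial oocytes of cultured ovaries and present in the other groups. Primordial oocytes *in vivo* had 10938, 995 and 35 reads, or 376, 33.3 and 1.12 TPM. Primordial oocytes *in vitro* had 5, 2 and 4 reads, or 0.25, 0.0555 and 0.147 TPM. In the same order, genes above the floor were 8690, 10240 and 6438 *in vivo* and 5703, 7966 and 8147 *in vitro*. All 3 *in vitro* libraries lay below all 3 *in vivo* libraries, and the *in vivo* libraries themselves spread from 35 to 10938 reads. The log2 fold change was -9.64 (SE 3.55), with an unadjusted p of 0.00667 and an adjusted p of 0.359 in edgeR, and DESeq2 called it at an adjusted p of 1.16e-05. The groups did not overlap in normalized CPM for 6.59% of the 15317 genes, and for this 1 of the 9 members. Beside this, the granulosa cell markers summed to 79.7 to 1200 CPM in the primordial *in vivo* libraries and to 624 to 3160 CPM in the primordial *in vitro* libraries, and the oocyte markers to 393 to 932 and 207 to 1350 CPM. Their part in the *Rad21* difference was not tested.

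In primary oocytes *Rad21* was read in every library, at 32.4, 118 and 3.69 TPM *in vivo* and at 172, 190 and 27.6 TPM *in vitro*, and the groups overlapped. The change in culture differed between the primary and primordial stage by 10.78 on the log2 scale (SE 4.18), with an edgeR adjusted p of 0.277 and a DESeq2 adjusted p of 0.00218. Between the stages *in vitro*, *Rad21* was higher in primary oocytes by 9.48 on the log2 scale (SE 3.53), with an edgeR adjusted p of 0.384 and a DESeq2 adjusted p of 5.89e-05. All 3 results use the same primordial *in vitro* libraries and are not separate evidence. Groups were apart for 11.2% of all genes and for 1 member, *Rad21*, between the stages *in vitro*. They were apart for 9.99% of all genes and no member between *in vitro* and *in vivo* primary oocytes, and for 6.39% and no member between the stages *in vivo*. In MII oocytes *Rad21* was even, with 63.4, 30.4 and 60.7 TPM *in vivo* and 43.3, 66.8 and 84.5 TPM *in vitro*.

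Within each library the members were set against the other subunits that can take the same position in the ring, *Smc1a*, *Stag1*, *Stag2* and *Rad21l*, as a share of the summed TPM of that position. At the kleisin position *Rad21* made up 92.4% to 100% in all 18 libraries, *Rec8* reached 1.35% at most and *Rad21l*, a further meiotic kleisin, 7.58% at most. These kleisin shares rest on the *Rec8* zeros and carry the same limit. At every position the shares compare levels between genes. In LCM libraries, probe coverage was not checked and the part of stromal and granulosa cell RNA was not tested. At the STAG position *Stag3* stayed under 1% in 15 of 18 libraries and reached 24.8% in the primary *in vivo* library named above. *Stag1* and *Stag2* made up the rest. At the SMC1 position *Smc1b* held 8.07% ± 7.66 (SD, n = 3) in primordial oocytes *in vivo* and 16.7% ± 14.2 *in vitro*. In primary oocytes it held 6.74% ± 6.65 *in vivo* and 16.2% ± 4.69 *in vitro*. In MII oocytes it held 10.9%, 25.9% and 28.2% *in vivo* and 32.9%, 29.9% and 36.5% *in vitro*, and the groups did not overlap. These shares rest on 63 to 311 reads of *Smc1b* in each MII library. The two-sided exact permutation p was 0.4, 0.2 and 0.1 at the primordial, primary and MII stage, where 0.1 is the smallest that 3 libraries against 3 allow, and 0.3 or more after Benjamini-Hochberg adjustment over these 3.

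**Figure D2:**
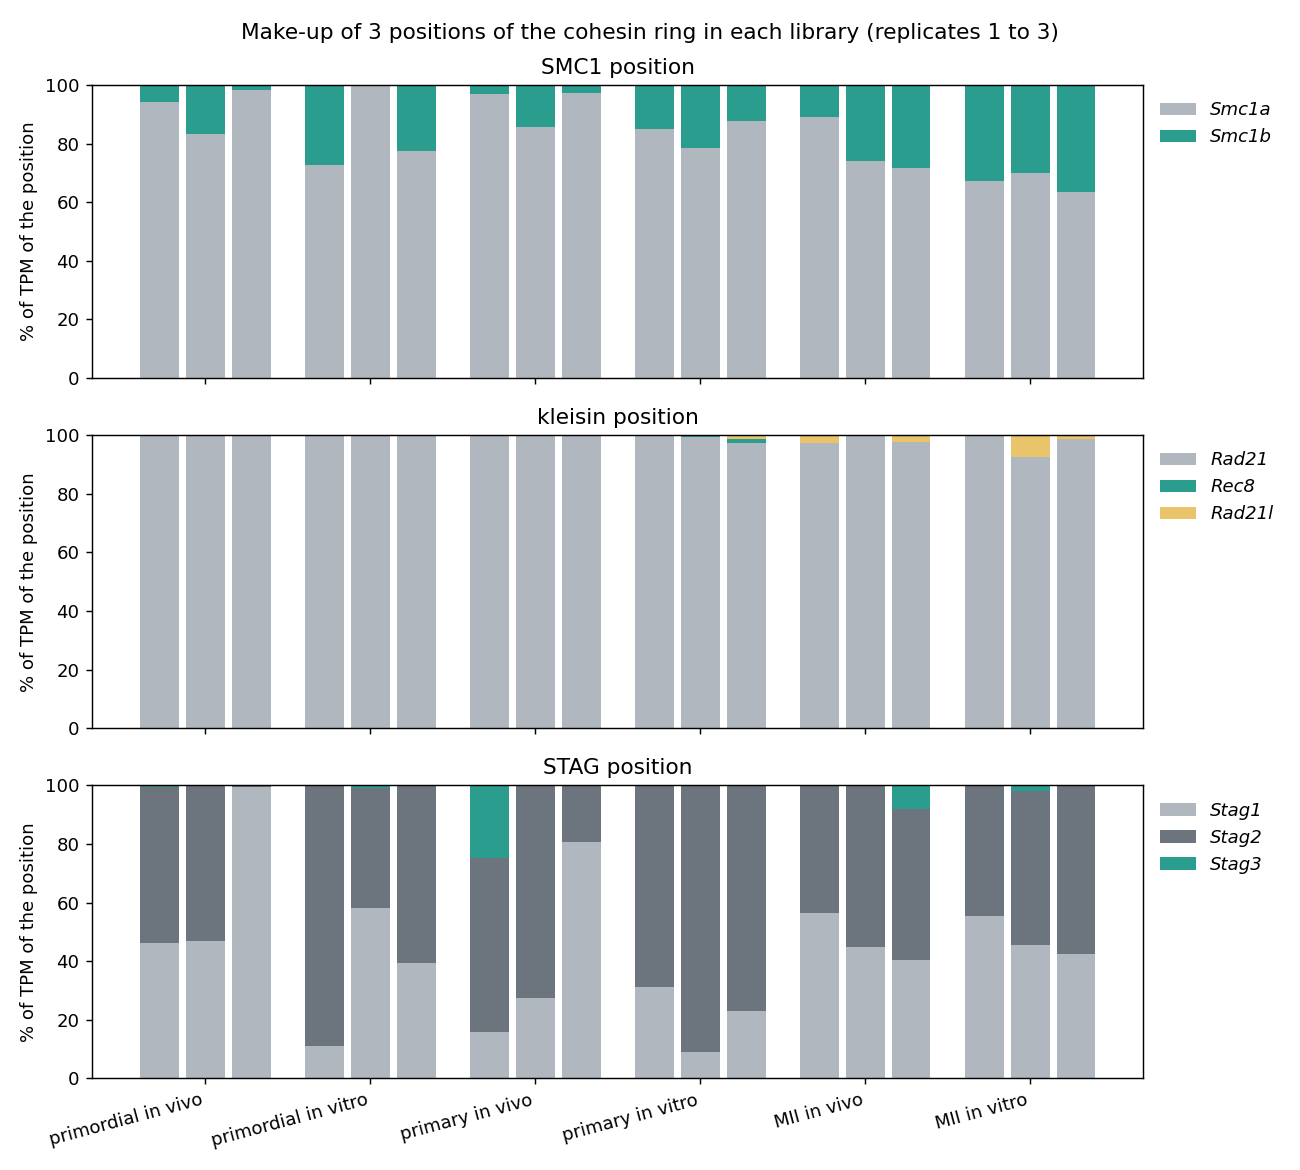
Share of the summed TPM of the SMC1, kleisin and STAG positions of the cohesin ring taken by each gene, in percent, with 1 bar per library (replicates 1 to 3 from left to right in each group). *Smc1a* led *Smc1b* in all 18 libraries, *Rad21* took 92.4% or more of the kleisin position in every library, and *Stag3* reached 24.8% in 1 library.

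The shugoshins were close to the floor in LCM oocytes and well above it in MII oocytes. *Sgo1* (ENSMUSG00000023940; chr17:53674786-53689333, minus strand), which guards centromeric cohesin in mitosis and is also present in oocytes, had 0 to 24 reads in the 12 LCM libraries, 73 in all. In MII oocytes it had 331, 275 and 290 reads *in vivo* and 664, 974 and 927 reads *in vitro*. These were 24.4, 24.2 and 22.5 TPM *in vivo* (mean 23.7 ± 1.06, SD, n = 3) and 41.2, 72.6 and 74.6 TPM *in vitro* (mean 62.8 ± 18.7). All 3 *in vitro* libraries were above all 3 *in vivo* libraries, as they were, in 1 direction or the other, for 16.2% of the 17144 genes tested, and *Sgo1* was the 1 member of the 8 tested with such a gap. The log2 fold change was 1.41 (SE 0.34, 95% interval 0.68 to 2.15), with an unadjusted p of 0.00107 and an edgeR adjusted p of 0.138, which misses the threshold. DESeq2 called it (adjusted p = 0.00671). With edgeR it passed once MII *in vivo* replicate 1 was left out (adjusted p = 0.0417), an omission that also raised the genes called in all from 60 to 378. Beside this, the 12 oocyte markers summed to 11000 to 13700 CPM *in vivo* and to 7940 to 9870 CPM *in vitro*. Within the list *Gdf9* had 52232 to 104999 reads *in vivo* and 42702 to 54095 *in vitro*. *Bmp15* (1722 to 2722 and 4720 to 5543 reads) and *Ddx4* (120 to 373 and 2661 to 3906 reads) went the other way. The part of these markers in the *Sgo1* difference was not tested.

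*Sgo2a* (ENSMUSG00000026039; chr1:57995971-58025899, plus strand), the shugoshin that protects REC8 at the first division, had 0 to 27 reads in the LCM libraries, 86 in all. MII oocytes had 32.5, 26.2 and 35.7 TPM *in vivo* and 20.0, 57.3 and 51.6 TPM *in vitro*. The *in vitro* libraries lay on both sides of the *in vivo* ones, and the log2 fold change was 0.42 (SE 0.36, 95% interval -0.35 to 1.19, edgeR adjusted p = 0.723). *Kctd18* overlaps *Sgo2a* on the other strand, and how reads shared with its paralog *Sgo2b* were counted is not stated. The ratio of *Sgo1* to *Sgo2a* TPM, chosen after the values were seen, was 0.752, 0.923 and 0.631 *in vivo* and 2.07, 1.27 and 1.45 *in vitro*. *Sgo2a* was thus the higher of the pair in all 3 *in vivo* libraries and *Sgo1* in all 3 *in vitro* libraries. The means were 0.769 ± 0.147 and 1.6 ± 0.42 (SD, n = 3 each). The two-sided exact permutation p, taken on log2 ratios, was 0.1, the smallest that 3 against 3 allows, and 0.3 after adjustment over 3 ratios. The others were *Pttg1* to *Espl1*, given below, and *Smc3* to *Rad21*. The latter was 5.07 ± 1.94 *in vivo* and 3.38 ± 0.762 *in vitro* (same permutation test, p = 0.3).

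Separase was read at every stage, whereas securin was near the floor in LCM oocytes and abundant in MII oocytes. *Espl1* (ENSMUSG00000058290; chr15:102296266-102324357, plus strand), the protease that opens the ring, had 1.65, 5.83 and 1.18 TPM in primordial oocytes *in vivo* and 0.145, 7.43 and 6.02 TPM *in vitro*. Primary oocytes had 1.22, 16.9 and 1.97 TPM *in vivo* and 10.1, 0.0151 and 10.6 TPM *in vitro*, so a single library stood apart in each group and the groups overlapped. MII oocytes had 83.6, 62.0 and 51.9 TPM *in vivo* and 30.0, 62.0 and 39.8 TPM *in vitro*, and the log2 fold change was -0.60 (SE 0.35, 95% interval -1.35 to 0.15, edgeR adjusted p = 0.519). A processed pseudogene, *Gm49480*, overlaps *Espl1* on the other strand.

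*Pttg1* (ENSMUSG00000020415; chr11:43420250-43426251, minus strand), the inhibitor of separase, had 0 to 87 reads in the LCM libraries, 265 in all, and 12435 to 27445 reads in the MII libraries. MII oocytes had 2105, 3412 and 3417 TPM *in vivo* (mean 2978 ± 756, SD, n = 3) and 1472, 3060 and 4208 TPM *in vitro* (mean 2913 ± 1374). The groups overlapped and the log2 fold change was -0.01 (SE 0.37, 95% interval -0.80 to 0.78, edgeR adjusted p = 0.996). *Pttg1* was the highest member in every MII library. The ratio of *Pttg1* to *Espl1* TPM, also chosen after the values were seen, was 48.7 ± 21.1 *in vivo* and 68.2 ± 32.8 *in vitro* (SD, n = 3 each; two-sided exact permutation p on log2 ratios = 0.6).

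Side by side, these 4 genes were the members for which every MII library lay above every LCM library. This held for 14.7% of the 28252 genes with a TPM value and for 4 of the 9 members, and it held for the same number without the 2 LCM libraries with the fewest genes above the floor. Only 21385 of the 28252 had a TPM above 0 in any MII library, so the share among genes able to qualify is larger than 14.7%. In the other direction, 1.25% of genes and no member had every LCM library above every MII library. That share is also of all 28252 genes, of which 19082 had a TPM above 0 in any LCM library. Proliferation markers were higher in the MII libraries as a sum, but not gene by gene. In each MII library 6 of 6 were detected, at a summed 944 to 1600 CPM. In the LCM libraries 3 to 6 of 6 were detected, at a summed 57.8 to 639 CPM. *Top2a* went the other way in the primary *in vitro* libraries, with 9532 to 10242 reads. The other LCM groups had 1481 to 2434 (primordial *in vitro*), 638 to 2509 (primary *in vivo*) and 1 to 25 reads (primordial *in vivo*). In the shallower MII libraries *Top2a* had 460 to 678 reads *in vivo* and 236 to 716 *in vitro*. The part of these markers in the levels of *Espl1* and *Pttg1*, which dividing cells also express, was not tested.

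**Figure D3:**
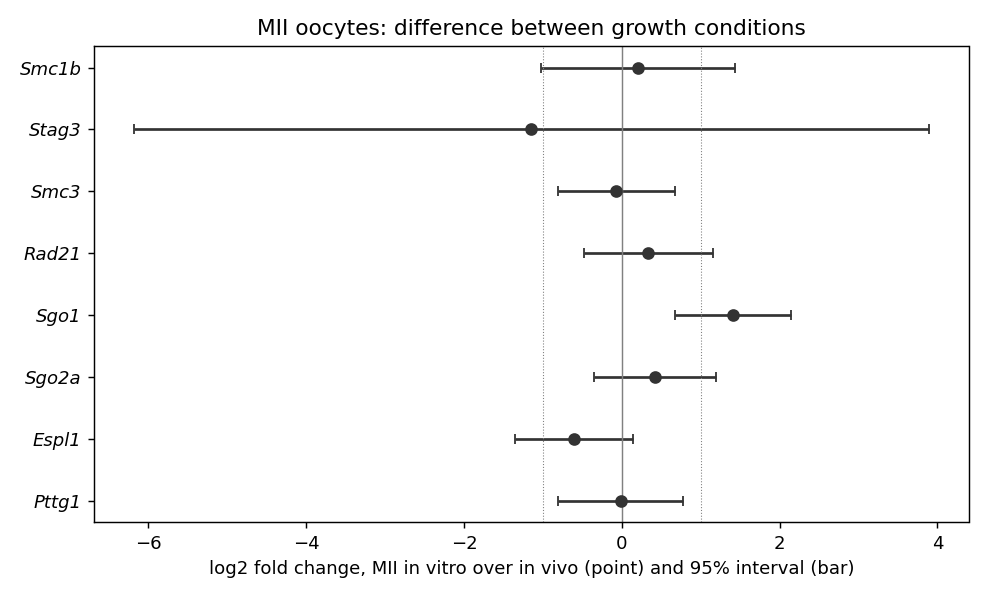
Log2 fold change of 8 members between *in vitro* and *in vivo* MII oocytes, from edgeR (point), with an approximate 95% interval derived from its F statistic (bar). Dotted lines mark a 2-fold change, and *Rec8* had no reads. *Sgo1* is the member whose interval, 0.68 to 2.15, stays above 0, and its adjusted p of 0.138 misses the threshold.

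For the remaining MII members the intervals show how large a change the 6 libraries still allow. The log2 fold change of *Smc3* was -0.07 (95% interval -0.81 to 0.67), that of *Rad21* 0.34 (-0.48 to 1.15) and that of *Smc1b* 0.20 (-1.03 to 1.43). *Stag3*, with reads in 2 of 6 libraries, had -1.15 (-6.18 to 3.89). The members' median log2 fold change was 0.09 beside 0.04 over all genes tested. In LCM oocytes the medians were 0.45 beside 0.00 at the primordial stage and -0.29 beside 0.44 at the primary stage. They were -0.64 beside 0.91 for the difference of these effects, 0.15 beside 0.00 between the stages *in vivo*, and 0.21 beside 0.44 between the stages *in vitro*.

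Around the members, 31 other genes of the pathway were followed: the counterpart subunits, the loader, the acetylation, maintenance and release factors, genes tied to centromeric protection or its control (with PP2A), and the regulators of separase. None passed the test in any of the 6 comparisons (28 tested in LCM and 30 in MII oocytes). In MII oocytes *Mau2*, a subunit of the cohesin loader, had the smallest p. It had 24, 84 and 76 reads *in vivo* and 322, 314 and 277 reads *in vitro*, and its log2 fold change was 2.24 (SE 0.53). The edgeR adjusted p was 0.125, and DESeq2 called it at 0.00359. The *Mau2* groups did not overlap, nor did those of *Cdca5* (sororin, which keeps cohesin locked on chromatin), *Ppp2r5b* and *Set*. These were 4 of the 30 tested, beside 16.2% of all 17144 genes, so the share was not above the background. *Meikin*, a meiotic kinetochore protector, had 58 reads in 1 *in vivo* library and none in the other 5 (edgeR adjusted p = 0.43). *Cdk1*, the kinase of M phase, had a log2 fold change of -1.07 (SE 0.48, edgeR adjusted p = 0.472). Without MII *in vivo* replicate 1, *Ccnb1*, *Cdc20* and *Esco1* were called in MII oocytes as well (edgeR adjusted p = 0.0255, 0.0417 and 0.045). That omission raised the genes called in all from 60 of 17144 to 378 of 16779, so these calls say little about the pathway itself.

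In LCM oocytes the smallest p among these 31 belonged to *Hdac8*, the deacetylase that recycles SMC3, between primary and primordial oocytes *in vivo*. Primordial oocytes had 5127, 3474 and 7710 reads and primary oocytes 1, 5 and 33 reads, with no overlap. The log2 fold change was -8.50 (SE 3.43), with an adjusted p of 0.38 in edgeR and 0.0105 in DESeq2. *Esco1*, an acetyltransferase of SMC3, was read 1, 6 and 6 times in primary oocytes *in vivo* and 2062, 1015 and 1047 times *in vitro*. Its log2 fold change was 7.80 (SE 4.18), with an adjusted p of 0.533 in edgeR and 0.0178 in DESeq2. Beside this, 7 to 9 of 10 granulosa cell markers were detected in the primary *in vitro* libraries and 3 to 7 in the primary *in vivo* libraries. The other genes with the 3 smallest p values in a comparison were *Esco2*, *Ppp2cb*, *Ppp2r5a*, *Ppp2r5b*, *Ppp2r5d* and *Ppp2r5e*, and the adjusted p of every one of the 28 was at least 0.38. Between *in vitro* and *in vivo*, groups did not overlap for 1 of the 28 (*Ppp2r5e*) at the primordial stage, beside 6.59% of all genes, and for 5 (*Bub1*, *Cdc20*, *Esco1*, *Set* and *Smc1a*) at the primary stage, beside 9.99%. Between the stages they did not overlap for *Hdac8* alone *in vivo*, beside 6.39%, and for 4 (*Bub1*, *Cdc20*, *Esco1* and *Ppp2ca*) *in vitro*, beside 11.2%.

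Side by side over stage, 6 of the 31 (19.4%) had every MII library above every LCM library, beside 14.7% of all genes. As said above, that 14.7% is of all 28252 genes, of which 21385 had a TPM above 0 in any MII library. They were *Cdca5* (326 to 776 TPM in MII oocytes and 0 to 1.40 TPM in LCM oocytes), *Esco1*, *Esco2*, *Sgo2b*, *Cdc20* and *Ccnb1*. *Cdc20*, the activator of the anaphase-promoting complex, ran from 299 to 1087 TPM, and *Ccnb1*, cyclin B1, from 290 to 1146 TPM in MII oocytes, beside 0 to 45.5 and 0 to 72.7 TPM in LCM oocytes. The other way round, *Stag1* (18.8 to 461 TPM in LCM and 4.27 to 12.3 TPM in MII oocytes) and *Ppp2ca*, the catalytic subunit of PP2A (53.4 to 666 and 2.15 to 9.21 TPM), were lower in every MII library, 2 of the 31 (6.45%) beside 1.25% of all genes. *Ppp2cb*, the other PP2A catalytic subunit, had 0 reads in all 6 MII libraries, and *Sgo2b* had 0 reads in all 12 LCM libraries. Stage and preparation cannot be told apart for either gene. Probe coverage of *Sgo2b* was not checked, and how reads shared with *Sgo2a* were counted is not stated. These zeros therefore do not show that the RNA was absent.

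**Figure D4:**
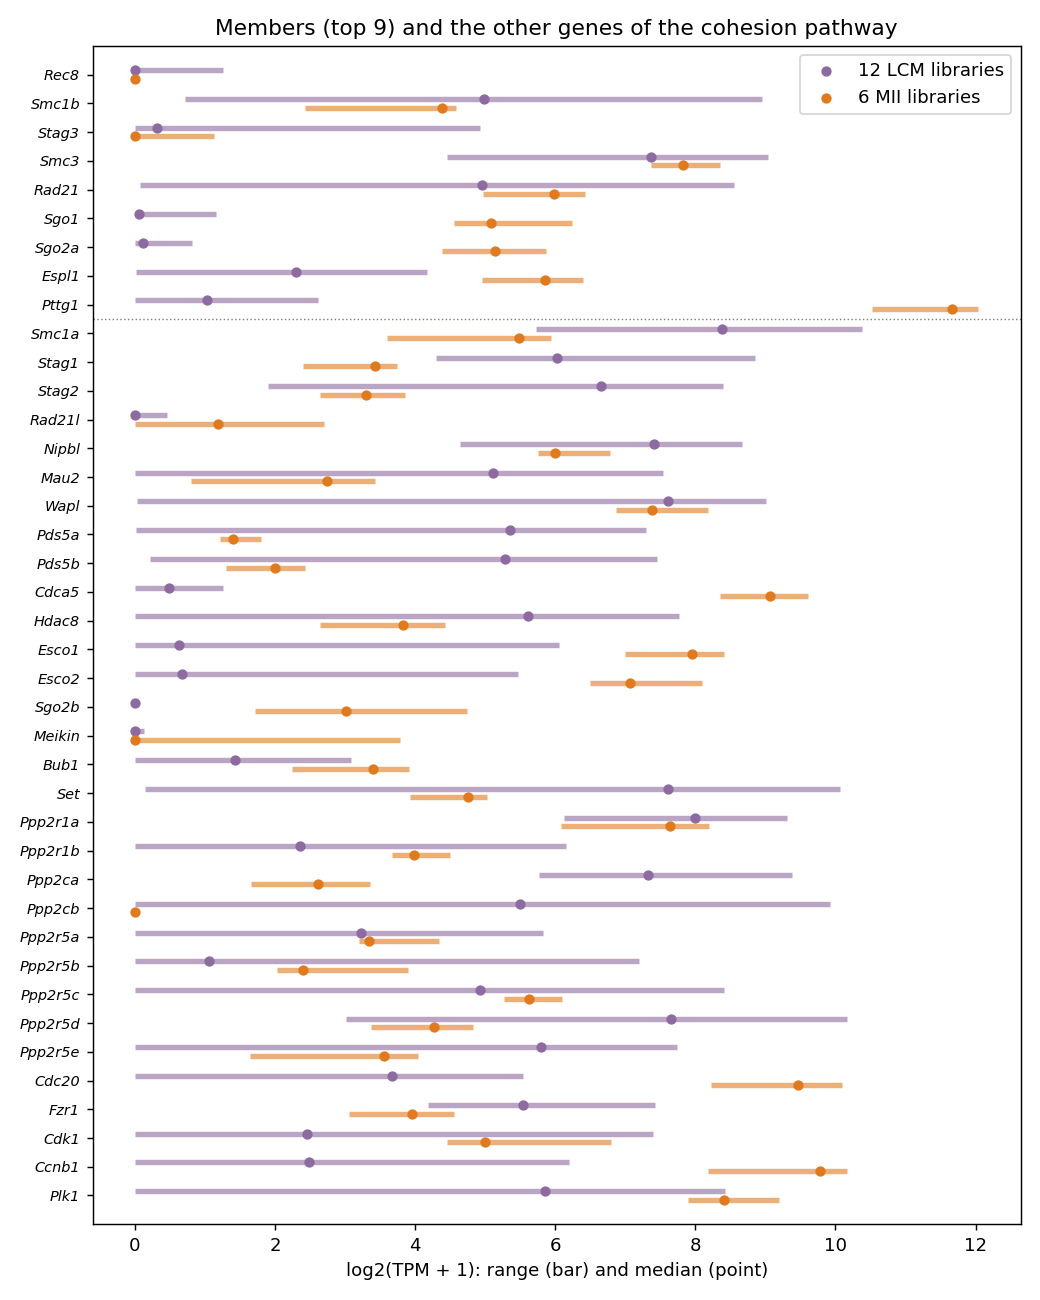
Range (bar) and median (point) of log2(TPM + 1) in the 12 LCM libraries (purple) and the 6 MII libraries (orange), for the 9 members (above the dotted line) and 31 other genes of the cohesion pathway. The ranges are apart for *Sgo1*, *Sgo2a*, *Espl1* and *Pttg1* among the members; the 2 kinds of library were prepared with different kits.

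Likeness was taken as the correlation of log2 CPM (prior count 2, without TMM) over the 18 libraries, with the mean of each kind of library removed. The genes most like *Smc3* among 9819 were *Dot1l* (r = 0.929), *Zbtb18* (r = 0.928) and *Ghitm* (r = 0.918). The genes most like *Pttg1* were *Atf4* (r = 0.915), *M6pr* (r = 0.902) and *Rer1* (r = 0.898). Over the 12 LCM libraries *Pttg1* had only 265 reads in all and was above the floor in 8, so counting error weighs on its values there. These values are a description over libraries of 2 preparations and of unequal depth, and were not tested.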

How the data were processed

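RNA was measured in 18 libraries, 3 in each of 6 groups, grouped by the sample titles. The authors trimmed reads with Trim Galore 0.4.1, aligned them with TopHat2 to the mm10 genome and used featureCounts to count reads per Ensembl gene; use of strand and of multiply mapped reads is not given in the sources used here. The deposited read counts are not normalized, and the deposited TPM values, for 28252 genes, were normalized by the authors for gene length and library size. Coordinates came from GENCODE M21 (GRCm38), which holds 53620 of the 53715 identifiers.

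The main test was that of edgeR 4.0.16, run in R 4.3.3 (TMM, glmQLFit with robust estimation, glmQLFTest), over genes with at least 10 reads in total. One fit of the 12 LCM libraries gave 5 comparisons, and the 6 MII libraries had their own fit. Normalized CPM is CPM after TMM. The biological coefficient of variation was 2.02 in the LCM fit and 0.726 in the MII fit. Alternatives were DESeq2 1.42.0, limma 3.58.1 on log2(TPM + 1) and log2(TPM + 0.1), other scalings and filters, 1 fit of all 18 libraries, no fold change threshold, a replicate block and leaving out each library. The scripts were tested on simulated counts.

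The titles number replicates 1 to 3 in every group, but same-numbered libraries deviated together by correlations of -0.032 to 0.072 only and were not treated as pairs. The members and gene lists were chosen with earlier results of these data known. The genes named are all members, the counterpart subunits and, of the other pathway genes, those called or the 3 with the smallest p in each comparison; genes whose groups did not overlap, or that separated MII from LCM oocytes, were named after their values were seen. Promoters are RefSeq sequences on GRCm38.p6.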

Additional observations from a re-analysis of the deposited data

How the results depend on the processing

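The count of members called stayed at 0 in every comparison under other scalings, filters, limma on TPM, 1 fit of all 18 libraries, the replicate block and no fold change threshold. DESeq2 called 1 member in 4 comparisons, *Rad21* in 3 that share the primordial *in vitro* libraries and *Sgo1* in MII oocytes. For *Rad21* these were the primordial stage, the difference of effects and the stages *in vitro*. There DESeq2 called 812, 558 and 454 of 15317 genes, and in MII oocytes 337 of 17144. Leaving out single libraries gave 0 members called in the LCM comparisons and 0 to 1 in MII oocytes, where *Sgo1* passed without MII *in vivo* replicate 1. Under the replicate block, which pairs libraries by number alone, members called were 0 in all comparisons, the adjusted p of *Sgo1* was 0.169, and 1, 0, 0, 0, 0 and 85 genes were called at the primordial stage, at the primary stage, for their difference, between stages *in vivo*, between stages *in vitro* and in MII oocytes, beside 5, 0, 16, 8, 0 and 60. With no filter on low counts, 263 genes and *Mau2* (adjusted p = 0.00689) were called in MII oocytes. Omitting single libraries moved the genes called to 0 to 3, 0 to 1, 0 to 20, 0 to 11, 0 to 0 and 11 to 378 in that order.

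Of 18 gene values, 275 settings were run, of which 254 kept direction and call, 9 became called and 12 changed sign. *Smc1b* at the primordial stage was -0.07 with limma on log2(TPM + 0.1), and -0.20 to its highest value of 3.34 over omitted libraries. *Pttg1* was 0.04 in 1 fit of all 18 libraries and -0.35 to 0.21 over omitted MII libraries, where *Smc1b* ran from -0.20 to 0.56, *Smc3* from -0.40 to 0.16 and *Stag3* from -5.83 to 4.71. *Stag3* at the primary stage ran from -6.89 to 3.55 over omitted libraries. The causes were not tested. DESeq2's log2 fold changes were -9.51, 10.29 and 9.11 for *Rad21*, 1.39 for *Sgo1*, 2.22 for *Mau2*, 7.50 for *Esco1* and -8.51 for *Hdac8*. Scaling by library size alone moved the median log2 fold change of all genes from 0.44 to 0.72 at the primary stage. Detected pairs of member and library were 83 and 64 in LCM oocytes at floors of 0 and 10 reads, and 44 in MII oocytes at both. With reads in place of TPM the *Sgo1* to *Sgo2a* ratio, *in vitro* over *in vivo*, was 2.07 beside 2.08, and 1.77 to 2.31 over omitted libraries. The 2 alternatives on this ratio and those on the count of members higher in MII oocytes were chosen after seeing the data.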
